A study of Mus musculus with 4 samples.

Results

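The mitochondrial ribosome has its own set of proteins, encoded in the nucleus under gene symbols that begin with Mrpl and Mrps. Among the genes counted, 78 mouse symbols have this form. Mrps6 was left out because it shares its locus with Slc5a3, a sodium and myo-inositol transporter gene, and the other 77 all had at least 100 unique molecular identifiers (UMIs, the tags that mark single captured RNA molecules) over the libraries. They were 77 of 16565 genes that reached that count, out of 32285 listed. Of the 77, 51 code for proteins of the large subunit and 25 for proteins of the small subunit. Mrps36 codes for a protein now placed in the 2-oxoglutarate dehydrogenase complex, and it was kept under the symbol rule.

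The cells came from embryoid bodies, the aggregates in which embryonic stem cells differentiate, made from the R1 mouse line and profiled with 10x Genomics single cell 3' v3.1 chemistry. Of 4 libraries, 1 came from day 8 embryoid bodies kept 7.33 days in normoxia and then 16 h in hypoxia, and 1 from embryoid bodies kept 8 days in normoxia. The other pair came from day 10 embryoid bodies kept 8 days in normoxia and then 48 h in hypoxia, and from embryoid bodies kept 10 days in normoxia. The 2 ages thus differ also in the length of hypoxia, and no source used here gives the oxygen level. The question of the design is what hypoxia does to the transcriptome of embryoid bodies at these ages. With 1 library per condition there is no replicate spread: no test was possible, and every interval below is a 95% interval for counting error alone.

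The library labelled hypoxia day 8 kept 3344 cells with a median of 18838.5 UMIs, against 3163 cells with a median of 23034 UMIs for normoxia day 8. Hypoxia day 10 kept 4615 cells with a median of 12800 UMIs, against 2670 cells with a median of 20306 UMIs for normoxia day 10. Of 12 hypoxia marker genes, among them Vegfa and Ndrg1, 11 of 12 were at least 1.5-fold higher in hypoxia at day 8 and 12 of 12 at day 10. The cytosolic ribosomal protein genes made up 30.2% of all UMIs in hypoxia day 10 and 21.4% in normoxia day 10, so that the share left for every other gene differed between these libraries. Between 0 and 5 cell barcodes were shared by any pair of libraries.

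Mitochondrial ribosomes translate the few messages that the mitochondrial genome encodes, all of them for core subunits of the respiratory chain and the ATP synthase. They descend from bacterial ribosomes. Part of their proteins have bacterial counterparts, while others were acquired in mitochondria and replaced ribosomal RNA or added new contacts, for example with the inner membrane. Promoters of nuclear genes for mitochondrial proteins are known for sites of the ETS-family factor GABP (NRF-2) and of NRF1.

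ETS, NRF1 and YY1 motifs were more frequent in the promoters of these genes than in promoters at large. RefSeq promoter windows, from 250 bases before to 50 bases after a start (assembly GRCm38.p6), were matched to 68 of the 77 genes. The core of the ETS site, CGGAAG on either strand, lay in 39 of the 68, or 57.4%, against 31.7% of the promoters of 12250 genes with at least 100 UMIs and 18.8% of all 27025. The longer ETS site CCGGAAGT, which contains the core, lay in 17.6% against 8.09% of the 12250. The palindromic NRF1 site with 1 free base lay in 19.1% against 10.1%, its strict form in 4.41% against 2.03%, and the YY1 site in 7.35% against 2.03%, all read on both strands. The core of the hypoxia response element, ACGTG, lay in 23.5% against 28.4%. The E-box CACGTG, which contains it, lay in 7.35% against 11.3%, CCAAT in 39.7% against 42.5%, and the cyclic AMP response element TGACGTCA in 2.94% against 3.31%. A match is a run of letters and not a measured binding site.

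The following stretches, free of annotated exons, show this range for genes that moved in different directions or by different amounts at day 10. Mrpl45 and Mrpl43 had more transcript in hypoxia than in normoxia, and Mrpl17, Mrps18c, Mrpl41 and Mrpl55 had less. Each is read 5' to 3' on the strand of its gene, and capitals mark the NRF1 site in Mrpl45 and Mrpl17, the ETS core in Mrpl43 and (as CTTCCG) in Mrps18c, and CCAAT (as ATTGG) in Mrpl41. The core ACGTG is not capitalised, and it lies in the stretch of Mrpl43 and, as CACGT, in that of Mrpl17. None of the listed motifs lies in the stretch of Mrpl55.
Mrpl45, chr11:97315596-97315715, plus strand: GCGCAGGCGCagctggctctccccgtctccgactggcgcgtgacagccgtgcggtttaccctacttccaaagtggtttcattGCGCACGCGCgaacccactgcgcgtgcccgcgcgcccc
Mrpl43, chr19:45006443-45006557, minus strand: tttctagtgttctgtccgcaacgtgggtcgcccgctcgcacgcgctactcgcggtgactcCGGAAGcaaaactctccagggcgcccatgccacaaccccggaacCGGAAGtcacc
Mrpl17, chr7:105811100-105811219, minus strand: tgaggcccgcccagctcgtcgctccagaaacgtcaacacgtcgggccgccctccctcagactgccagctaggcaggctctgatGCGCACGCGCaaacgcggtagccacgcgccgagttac
Mrps18c, chr5:100798599-100798626, plus strand: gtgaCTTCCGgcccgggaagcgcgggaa
Mrpl41, chr2:24975099-24975218, minus strand: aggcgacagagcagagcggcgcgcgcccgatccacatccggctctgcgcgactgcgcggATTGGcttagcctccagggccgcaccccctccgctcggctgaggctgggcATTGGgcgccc
Mrpl55, chr11:59202386-59202485, plus strand: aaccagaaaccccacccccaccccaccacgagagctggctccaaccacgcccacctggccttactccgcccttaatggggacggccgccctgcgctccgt

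The ETS core was about as frequent among genes on either side of the hypoxia comparison. It lay in 22 of the 39 matched genes that were at least 1.5-fold lower in hypoxia at day 10 and in 6 of the 12 that were above 0 there. The NRF1 site with a free base lay in 4 of the 39 and in 4 of the 12. These counts are small, and no test was made of them.

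Levels are given as CPM, the UMI count scaled to all UMIs of the kept cells of a library. With 3' counting of UMIs a level is not divided by gene length, and levels are therefore compared here between libraries and not between genes. The 77 genes together made up 0.483% of UMIs (0.482 to 0.485) in hypoxia day 8 and 0.573% (0.572 to 0.575) in normoxia day 8. They made up 0.362% (0.360 to 0.363) in hypoxia day 10 and 0.504% (0.502 to 0.506) in normoxia day 10. As a log2 ratio the share was -0.25 at day 8 and -0.48 at day 10. Under TMM scaling, which sets the bulk of genes to no change and moved the median of all genes by 0.18 at day 8 and 0.35 at day 10, the log2 share ratio was -0.02 at day 8 and 0.02 at day 10. So the lower summed share in hypoxia is a statement about the fraction of all captured RNA, and the day 10 direction turned under TMM. By gene, 56 of the 77 had their highest level in normoxia day 8 and 62 had their lowest level in hypoxia day 10. The same counts were not made over all genes, so they are not read as a trait of the 77. With this scaling 66.7% of all genes had a log2 ratio below 0 in hypoxia at day 8 and 71.7% at day 10. Between normoxia day 10 and normoxia day 8 it was below 0 for 58.6%.

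At day 8, after 16 h of hypoxia, most of these genes were slightly below their normoxic level and few moved far. The median log2 ratio of CPM + 1 was -0.27, with quartiles of -0.47 and -0.14, against a median of -0.15 over all genes. The ratio was below 0 for 66 of the 77. At least 1.5-fold lower were 2 of the 77, beside 11.8% of all genes, and at least 1.5-fold higher was 1, beside 4.15% of all genes. Among nuclear genes averaging 20 CPM or more the shares were 6.22% lower and 4.68% higher. The ratio was below 0 for 85.7% of the 77 and for 66.7% of all genes. With each cell thinned to 5000 UMIs, 11 of the 77, or 14.3%, passed the fold downwards at day 8, beside 14.4% of all genes, so the smaller share of the 77 past the fold did not hold at equal depth. Under TMM the median was -0.04 (all genes 0.03), with 1 gene past the fold downwards and 2 upwards. Of all genes 5.51% were lower and 7.81% higher under that scaling.

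Mrpl41, for the large subunit protein mL41 that has no bacterial counterpart, had the lowest ratio at day 8. It had 23.8 CPM in hypoxia and 46.7 CPM in normoxia, which is 0.511 of the normoxic level (0.483 to 0.540). Mrpl22, for uL22m, had 32.5 CPM in hypoxia and 49.5 CPM in normoxia, a ratio of 0.657 (0.625 to 0.691). The gene that rose was Mrpl24, for uL24m of the large subunit. It had 90.0 CPM in hypoxia and 59.0 CPM in normoxia, 1.52 times the normoxic level (1.47 to 1.58). Mrpl24 shares exon sequence with Rrnad1 on the opposite strand, and whether the counting used strand was not stated. Of the 77, 22 overlap exons of a measured gene on the opposite strand.

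At day 10, after 48 h of hypoxia, ratios lay further apart than at day 8, both among the 77 and among all genes. The median log2 ratio of the 77 was -0.72 with quartiles of -0.96 and -0.32. Over all genes it was -0.41 with quartiles of -0.95 and 0.07, so between quartiles the 77 were spread less than genes at large. At day 8 the quartiles of all genes were -0.40 and 0.09. Among the 77 the day 10 extremes were -2.23 for Mrpl55 and 1.09 for Mrps18b. At least 1.5-fold lower were 43 of the 77, or 55.8%, beside 40.6% of all genes and 37.5% of the 6563 nuclear genes averaging 20 CPM or more. At least 1.5-fold higher were 3 of the 77, beside 9.18% and 12.2%. With TMM scaling 18 were lower and 11 higher. Of these, 18 of 77, or 23.4%, is close to the 24.5% of all genes that were lower under the same scaling. The 11 higher stand beside 20.9% of all genes. The TMM median was -0.23 for the 77 and -0.06 for all genes. The median of the 77 lay below that of all genes under both scalings. TMM rescales whole libraries, so apart from the pseudocount it shifts every log2 ratio alike, and this agreement is no separate support. Under TMM the share of the 77 past the fold downwards did not exceed that of all genes.

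**Figure D1:**
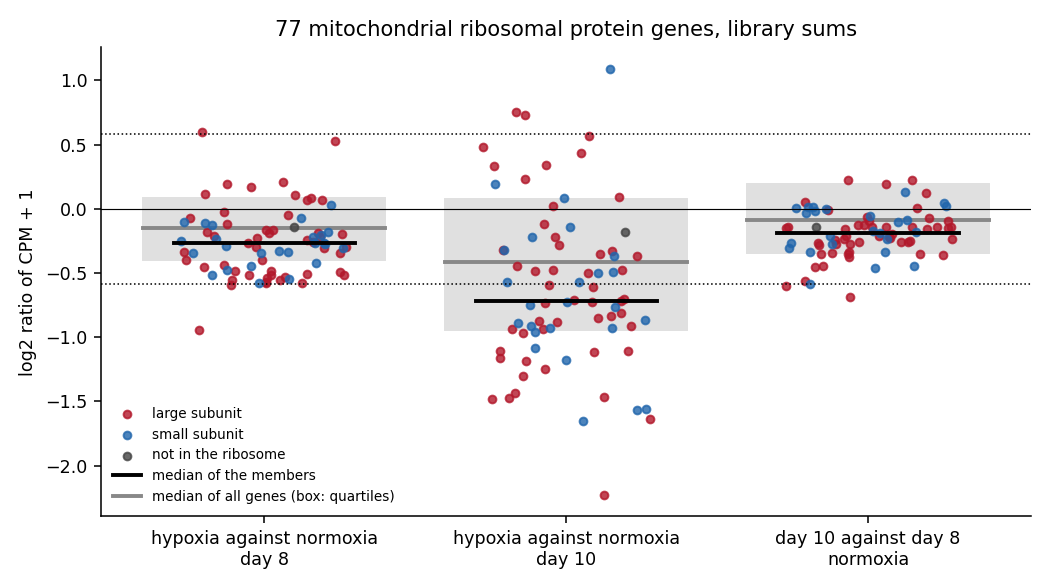
Log2 ratio of CPM + 1 (vertical axis) for each of the 77 genes in 3 comparisons of libraries (horizontal axis), coloured by subunit, with horizontal spread for visibility. Black lines mark the median of the 77 (-0.27, -0.72 and -0.19), and grey lines and boxes the median and quartiles of all genes. Dotted lines mark 1.5-fold. The points spread most at day 10, as do the quartiles of all genes. The medians of the 77 stayed below 0 under TMM scaling (-0.04, -0.23 and -0.07).

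The subunits had similar medians. At day 10 the fold was passed downwards by 29 and upwards by 2 of the 51 large subunit genes, with a median of -0.71. Of the 25 small subunit genes 14 were lower and 1 higher, with a median of -0.75. By origin, the 45 genes with bacterial counterparts had 27 lower and 0 higher (median -0.72), and the 31 for mitochondrion-specific proteins had 16 lower and 3 higher (median -0.70). Under TMM the higher counts were 4 of 45 and 7 of 31, beside 20.9% of all genes. The absence of bacterial-type genes among those past the fold upwards thus held for scaling to total UMIs only. It also rests on naming, since Mrps18b and Mrps18a were counted as mitochondrion-specific by their protein names, mS40 and mL66. Both genes descend from the bacterial S18 gene.

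Mrpl55, for bL31m of the large subunit, was lowest relative to normoxia. It had 6.07 CPM in hypoxia day 10 and 32.1 CPM in normoxia day 10, which is 0.189 of the normoxic level (0.170 to 0.209). At day 8 the same gene had 27.3 CPM in hypoxia and 41.3 CPM in normoxia. The day 10 hypoxia library stands far below the other 3. Mrpl41 fell to 12.0 CPM in hypoxia day 10, against 39.3 CPM in normoxia day 10, a ratio of 0.304 (0.281 to 0.328). On the scale of CPM + 1, Mrpl41 and Mrpl22 were the 2 genes at least 1.5-fold lower in both hypoxia comparisons. As plain ratios of CPM, Mrpl36, Mrpl55 and Mrps18c also lay just past that fold at day 8, which makes 5. Genes lower in both comparisons were not counted over all genes.

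Small subunit genes of bacterial type were also among the lowest. Mrps2, for uS2m, had 3.03 CPM in hypoxia day 10 and 10.9 CPM in normoxia day 10, and it had the lowest mean level of the 77. Mrps15, for uS15m, had 29.2 CPM in hypoxia and 87.8 CPM in normoxia at day 10, a ratio of 0.333 (0.316 to 0.349), and 69.2 CPM in hypoxia and 87.9 CPM in normoxia at day 8. Mrpl17, for bL17m of the large subunit, had 40.3 CPM in hypoxia and 114 CPM in normoxia at day 10, against a ratio at day 8 of only 0.889 (0.865 to 0.914). Mrpl19, Mrpl33, Mrpl40 and Mrpl42, all of the large subunit, complete the lowest 10 with log2 ratios between -1.47 and -1.30.

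Mrpl12 codes for bL12m of the flexible stalk that recruits translation factors, and it had 57.5 CPM in hypoxia day 10 and 88.5 CPM in normoxia day 10. Mrpl11, for the stalk base protein uL11m, had 38.8 CPM in hypoxia day 10 and 74.1 CPM in normoxia day 10. Mrps12, for uS12m at the decoding centre, had 17.7 CPM in hypoxia day 10 and 35.4 CPM in normoxia day 10. Mrpl58, for a peptidyl-tRNA hydrolase (ICT1) that is built into the large subunit, had 35.0 CPM in hypoxia and 65.3 CPM in normoxia. These 4 genes were past 1.5-fold at day 10 with scaling to total UMIs, like 43 of the 77. Mrps36, the gene outside the ribosome, had 89.5 CPM in hypoxia day 10 and 102 CPM in normoxia day 10, a log2 ratio of -0.18.

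The 3 genes past the fold upwards at day 10 were Mrps18b, Mrps30 and Mrpl45. Mrps18b, for mS40 of the small subunit, had 63.9 CPM in hypoxia day 10 and 29.4 CPM in normoxia day 10, 2.17 times the normoxic level (2.06 to 2.29). Despite its symbol Mrps30 codes for a large subunit protein, mL65. It had 62.0 CPM in hypoxia day 10 and 36.4 CPM in normoxia day 10, a ratio of 1.70 (1.62 to 1.79). Mrpl45, for mL45, which in mammals holds the large subunit to the inner membrane near the exit of the peptide tunnel, had 96.7 CPM in hypoxia day 10 and 57.9 CPM in normoxia day 10, a ratio of 1.67 (1.60 to 1.74). Mrpl30, for uL30m, followed with 253 CPM in hypoxia day 10 and 170 CPM in normoxia day 10, a ratio of 1.48. In all these genes the hypoxia day 10 library was the highest of the 4. Mrps18b, Mrps30 and Mrpl45 stayed past 1.5-fold at day 10 under every other setting tried, with lowest log2 ratios of 0.91, 0.63 and 0.61.

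The Mrps18 genes are paralogs, descended from the bacterial S18 gene, whose products sit at different places: in the human mitoribosome MRPS18C takes the S18 position, MRPS18B another place on the small subunit, and MRPS18A a place on the large subunit. At day 10 they differed in direction. Mrps18c had 24.9 CPM in hypoxia day 10 and 80.2 CPM in normoxia day 10, 0.310 of the normoxic level (0.294 to 0.327). Mrps18a had 30.7 CPM in hypoxia day 10 and 67.3 CPM in normoxia day 10, 0.456 of the normoxic level (0.434 to 0.480), while Mrps18b was 2.17 times its normoxic level. At day 8 Mrps18c had 73.1 CPM in hypoxia and 110 CPM in normoxia, Mrps18a had 65.2 CPM in hypoxia and 74.5 CPM in normoxia, and Mrps18b had 35.9 CPM in hypoxia and 40.8 CPM in normoxia. A ratio between genes within a library does not depend on the scaling: Mrps18b relative to Mrps18c differed between hypoxia and normoxia at day 10 by the gap between log2 ratios of 1.09 and -1.65. How the authors' counting assigned reads between these paralogs is not known beyond the tool.

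**Figure D2:**
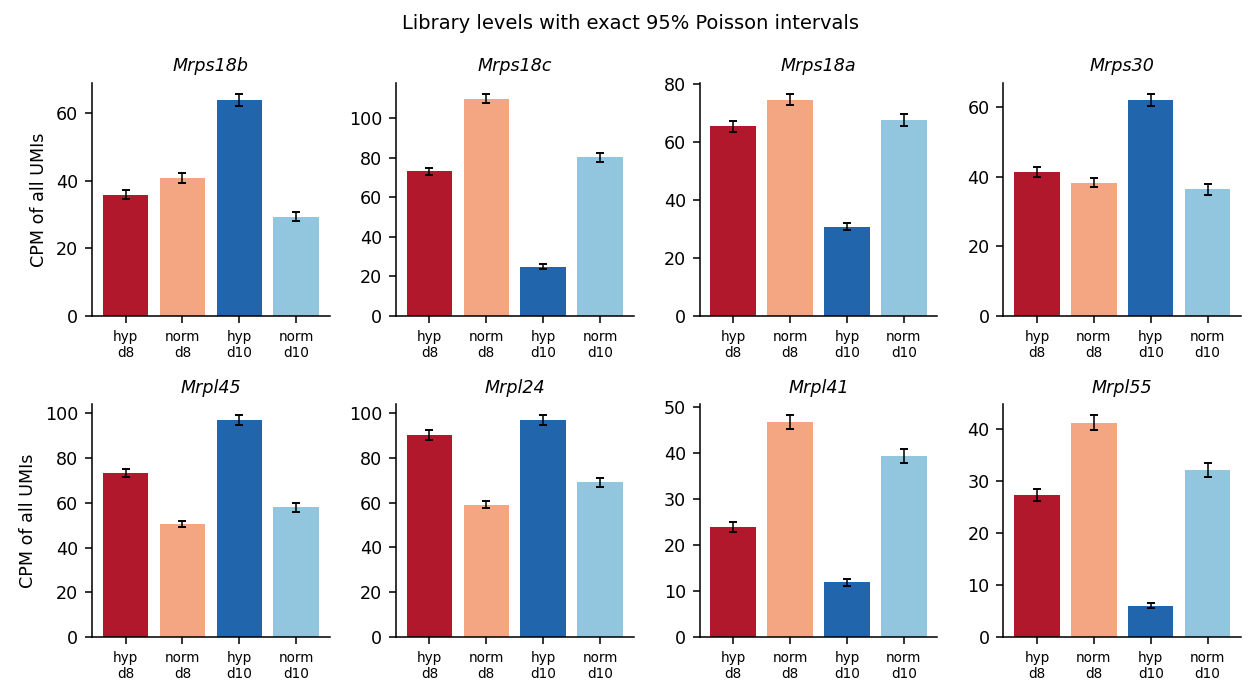
Level in CPM of all UMIs (vertical axes, each starting at 0) of 8 genes in the 4 libraries (hyp, hypoxia; norm, normoxia; d8 and d10, day), with exact Poisson intervals as error bars. Mrps18b, Mrps30, Mrpl45 and Mrpl24 are highest in hypoxia day 10, and Mrps18c, Mrps18a, Mrpl41 and Mrpl55 are lowest there.

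The same genes tended to stand low or high at both ages, in comparisons that share no library. Across the 77 genes the log2 ratios at day 8 and day 10 had a Pearson correlation of 0.70 and a Spearman correlation of 0.67. Across all genes the Pearson correlation was 0.36. Of the 77, 73 averaged 20 CPM or more, but only 6576 of all 16565 genes did. The sets thus differ in level and in counting error. No correlation was computed for other genes of like level, so this contrast is not read. The correlations are descriptions, since genes of 1 library are not independent replicates and share its depth and composition. In both comparisons 60 genes were below 0 and 7 above, and 60 of the 77 had a lower ratio at day 10 than at day 8. These counts were not made over all genes, whose medians were -0.15 at day 8 and -0.41 at day 10. They are therefore not read as a trait of the 77. Mrpl24 and Mrpl45 stood high at both ages: Mrpl24 had 96.6 CPM in hypoxia day 10 and 69.0 CPM in normoxia day 10, and Mrpl45 had 73.2 CPM in hypoxia day 8 and 50.5 CPM in normoxia day 8. Mrps18b departs from the pattern, with a log2 ratio of -0.18 at day 8.

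**Figure D3:**
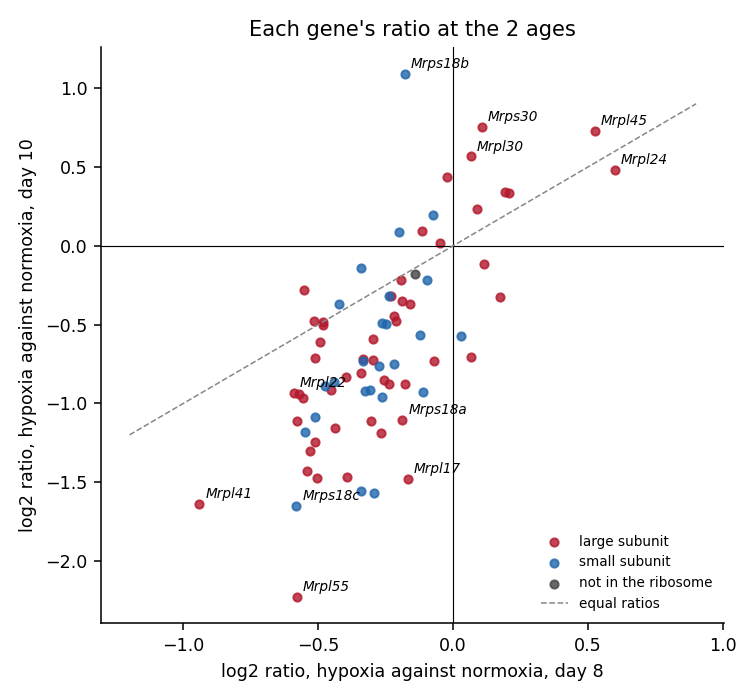
Log2 ratio of CPM + 1 of each of the 77 genes for hypoxia against normoxia at day 8 (horizontal axis) and at day 10 (vertical axis), coloured by subunit, with the dashed line marking equal ratios. Most points lie below the dashed line and 60 lie below 0 on both axes, which was not counted over all genes. Mrps18b lies highest at 1.09 on the vertical axis with -0.18 on the horizontal one.

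Between normoxia day 10 and normoxia day 8 the median log2 ratio was -0.19, against -0.09 over all genes. At least 1.5-fold lower were 3 of the 77, beside 10.9% of all genes and 6.51% of nuclear genes averaging 20 CPM or more, and 0 were higher, beside 8.92% and 6.54%. Under TMM the median was -0.07 and none of the 77 passed the fold in either direction, beside 7.54% of all genes lower and 11.1% higher. Mrpl20, for bL20m, had 89.1 CPM at day 10 and 144 CPM at day 8, a ratio of 0.619 (0.599 to 0.639). Mrpl40, for mL40, had 31.1 CPM at day 10 and 47.7 CPM at day 8, and Mrps28, for bS1m, had 62.7 CPM at day 10 and 94.7 CPM at day 8. This comparison shares its libraries with the hypoxia comparisons and is given beside them only.

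Single cells were compared after thinning each cell to 5000 UMIs. The median cell then held 23 UMIs of these genes in hypoxia day 8 (quartiles 19 and 28) and 28 in normoxia day 8 (23 and 33). It held 17 in hypoxia day 10 (13 and 21) and 25 in normoxia day 10 (20 and 30). Without thinning the medians were 86, 126, 43 and 100 UMIs in the same order of libraries. Thinning left out 166 shallower cells of hypoxia day 8, 70 of normoxia day 8, 619 of hypoxia day 10 and 162 of normoxia day 10. The quartile ranges of hypoxia and normoxia overlap at both ages, so cells of the conditions are not separated by this measure.

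Transcripts of dividing cells moved with these results. Past 1.5-fold downwards in hypoxia were 24 of 25 S phase genes at day 8 and 23 at day 10, and 4 of 25 genes of the G2 and M phases at day 8 and 23 at day 10. Cells with at most 2 UMIs of those lists after thinning were 27.4% of hypoxia day 8, 8.96% of normoxia day 8, 49.7% of hypoxia day 10 and 27.8% of normoxia day 10. Within such cells alone the median log2 ratio of the 77 genes was -0.14 at day 8 and -0.49 at day 10. Over all genes in the same cells it was -0.09 and -0.36. The median of the 77 minus that of all genes was thus -0.05 and -0.13, against -0.12 and -0.31 in all kept cells. At day 10, 31 of the 77, or 40.3%, were at least 1.5-fold lower beside 37.6% of all genes in the same cells. The mean number of UMIs of the 77 genes per thinned low-cycling cell was 17.4 in hypoxia day 10 and 22.8 in normoxia day 10. The part of cell division in the difference was not tested.

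Cells were clustered without hypoxia, cell cycle, stress, mitochondrial and ribosomal genes and named from marker genes, with a second naming step added after the clusters were seen. Mesenchymal-like cells, with collagen genes such as Col1a1 and Col3a1, were 2893 of the cells in hypoxia day 8, 2690 in normoxia day 8, 4336 in hypoxia day 10 and 2390 in normoxia day 10. In them the 77 genes made up 0.489% of UMIs in hypoxia day 8 and 0.572% in normoxia day 8, and 0.361% in hypoxia day 10 and 0.499% in normoxia day 10. Different clusters hold most of this class in the day 10 libraries, namely clusters 0, 1, 5 and 11 in hypoxia and clusters 7, 10 and 12 in normoxia, so a cluster there may be a library and not a cell type. Cluster 12 led with mesothelial markers such as Muc16, Upk3b and Wt1, and it held 609 of the normoxia day 10 cells of this class and 0 of hypoxia day 10, so the class does not hold like cells in both. Without that cluster, a choice made after seeing the data, the share was 0.361% in hypoxia day 10 and 0.481% in normoxia day 10. At day 8 several clusters held cells of both libraries, and in most the share was lower in hypoxia: 0.516% against 0.582% in cluster 2, 0.525% against 0.629% in cluster 4, 0.467% against 0.581% in cluster 8, and 0.466% against 0.570% in cluster 9. Cluster 3, with 1131 cells of hypoxia and 22 of normoxia, had 0.458% against 0.457%.

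Smaller classes showed the same order where they held enough cells, with scaling to total UMIs. In macrophage-like cells, marked by Csf1r and C1qa, the share was 0.564% of UMIs in 38 cells of hypoxia day 8 and 0.788% in 51 cells of normoxia day 8, and 0.387% in 118 cells of hypoxia day 10 and 0.580% in 183 cells of normoxia day 10. In endoderm-like cells, marked by Apoa1 and Epcam, it was 0.459% in 191 cells of hypoxia day 8 and 0.561% in 241 cells of normoxia day 8, and 0.418% in 56 cells of hypoxia day 10 and 0.521% in 65 cells of normoxia day 10. In erythroid-like cells it was 0.371% in 150 cells of hypoxia day 8 and 0.458% in 107 cells of normoxia day 8. In endoderm-like cells at day 10 the log2 share ratio was -0.32, and the median over all genes counted there was -0.35. The median log2 ratio of the list there was -0.44. It was -0.30 at day 8, beside -0.06 over all genes. In macrophage-like cells it was -0.52 beside -0.10 at day 8 and -0.71 beside -0.23 at day 10. In erythroid-like cells at day 8 it was -0.27 beside -0.17. At day 10 the erythroid-like, megakaryocyte-like, cardiomyocyte-like and endothelial-like classes had 11 cells or fewer in normoxia and are not read.

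**Figure D4:**
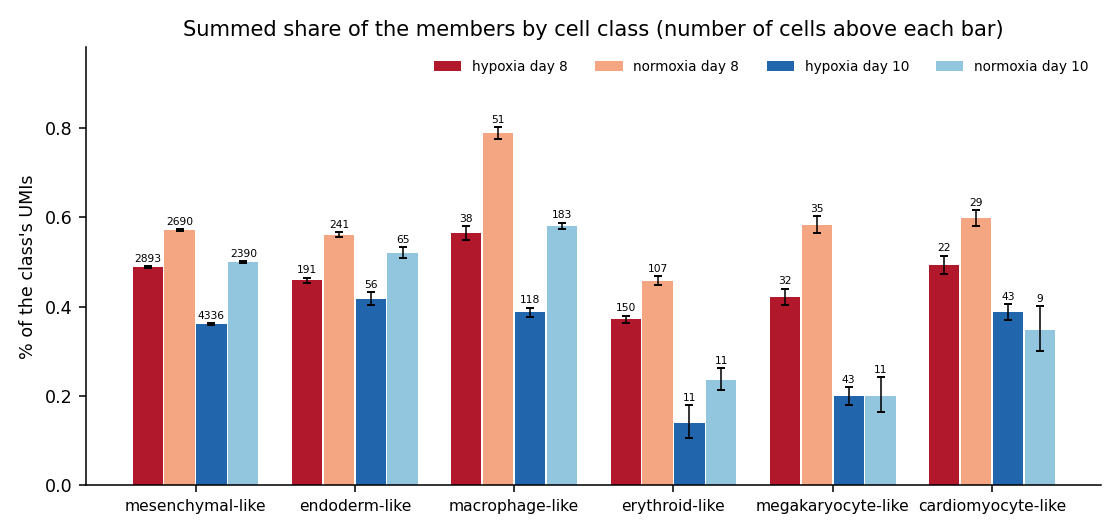
Share of a cell class's UMIs from the 77 genes, in percent (vertical axis, from 0), by class (horizontal axis) and library, with exact binomial intervals for counting error and the number of cells above each bar. In the mesenchymal-like, endoderm-like and macrophage-like classes the hypoxia bar is below the normoxia bar at both ages; over whole libraries the day 10 log2 share ratio was -0.48 scaled to total UMIs and 0.02 under TMM.

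Mrps18b differed between these classes. In mesenchymal-like cells it had 64.7 CPM (62.9 to 66.6) in hypoxia day 10 and 28.2 CPM (26.9 to 29.7) in normoxia day 10. In endoderm-like cells it had 84.9 CPM (65.4 to 108) in hypoxia day 10 and 35.6 CPM (26.2 to 47.2) in normoxia day 10. In macrophage-like cells it had 22.4 CPM (15.5 to 31.4) in hypoxia day 10 and 43.3 CPM (37.1 to 50.2) in normoxia day 10, so the direction was opposite there. Mrps30 had log2 ratios of 0.77 in mesenchymal-like, 0.00 in endoderm-like and -0.24 in macrophage-like cells at day 10. Mrps18a had -1.12, 0.03 and -0.81 in the same classes. Mrps18c was lower in hypoxia in all 3: it had 66.7 CPM in hypoxia day 10 and 107 CPM in normoxia day 10 in macrophage-like cells, and 23.9 CPM and 78.5 CPM in the mesenchymal-like cells of those libraries. Mrpl45 was higher in hypoxia day 10 in all 3 classes, with 110 CPM against 82.2 CPM in macrophage-like cells. The difference between classes was not tested, since each class has 1 library per condition.

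Other proteins of the mitochondrial gene expression system gave a mixed picture. Of the proteins of the mitochondrial ribosome that carry other symbols, 5 were measured and 0 of 5 passed 1.5-fold in either hypoxia comparison. Dap3, for the GTP-binding small subunit protein mS29, had 55.1 CPM in hypoxia day 10 and 64.6 CPM in normoxia day 10, and 99.6 CPM in hypoxia day 8 and 79.2 CPM in normoxia day 8. Ptcd3, Chchd1, Aurkaip1 and Gadd45gip1 had day 10 log2 ratios between -0.40 and 0.01. These 5 are too few to set their spread against that of the 77.

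Counts past the fold at day 10 in these lists stand beside 40.6% of all genes that were lower, and 24.5% under TMM. Of all genes 9.18% were higher, and 20.9% under TMM. Of 26 assembly factors 13 were at least 1.5-fold lower at day 10 and 0 higher (8 and 2 under TMM), and 2 lower and 1 higher at day 8. Fastkd2, for a protein needed for 16S ribosomal RNA, had 4.13 CPM in hypoxia day 10 and 14.1 CPM in normoxia day 10, and Nsun4, for the 12S ribosomal RNA methyltransferase, had 3.49 CPM in hypoxia day 10 and 12.2 CPM in normoxia day 10. Malsu1, for an anti-association factor of the large subunit, had 69.9 CPM in hypoxia day 10 and 64.0 CPM in normoxia day 10. Of 14 translation factors 5 were lower and 1 higher at day 10 (3 and 1 under TMM), a smaller share lower than among all genes with scaling to total UMIs. Mtif2, the initiation factor, fell to 14.6 CPM in hypoxia day 10, against 43.7 CPM in normoxia day 10. Tufm, the elongation factor EF-Tu, had 28.5 CPM in hypoxia day 10 and 32.2 CPM in normoxia day 10.

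The factor that rose was Oxa1l, the insertase that takes nascent chains from the mitochondrial ribosome into the inner membrane and that in human structures binds the ribosome near mL45. It had 102 CPM in hypoxia day 10 and 58.0 CPM in normoxia day 10, and 58.9 CPM in hypoxia day 8 and 44.2 CPM in normoxia day 8, in the same directions as Mrpl45. Among 22 mitochondrial aminoacyl-tRNA synthetase genes and their partners 16 were at least 1.5-fold lower and 1 higher at day 10, with a median of -1.15 (12 lower, 1 higher and a median of -0.73 under TMM). Vars2 had 0.82 CPM in hypoxia day 10 and 5.59 CPM in normoxia day 10. The 1 that rose, Gars, codes for the enzyme of both the cytosol and mitochondria.

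Of 25 genes for mitochondrial transcription and RNA processing 14 were at least 1.5-fold lower and 1 higher at day 10, with a median of -0.66. Under TMM 8 were lower and 4 higher, with a median of -0.17. Tfam, for the mitochondrial DNA packaging and transcription factor, had 18.2 CPM in hypoxia day 10 and 48.0 CPM in normoxia day 10. Rexo2, an oligoribonuclease, had 22.7 CPM in hypoxia day 10 and 98.3 CPM in normoxia day 10. Polrmt, the mitochondrial RNA polymerase, had 3.95 CPM in hypoxia day 10 and 5.64 CPM in normoxia day 10, and the messenger RNA stabilizers Lrpprc and Slirp had log2 ratios of -0.66 and -0.62. The gene that rose was Grsf1, for a protein of mitochondrial RNA granules.

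Among the lists of mitochondrial genes, the messages that mitochondrial ribosomes translate had the lowest medians at both ages. All 13 mitochondrially encoded protein genes were at least 1.5-fold lower at day 10 and 10 of 13 at day 8, with medians of -2.02 and -1.14 (-1.52 and -0.92 under TMM). They made up 1.11% of UMIs in hypoxia day 10 and 4.05% in normoxia day 10. For the 77 nuclear-encoded respiratory chain subunits 36 were lower and 0 higher at day 10, with a median of -0.56 (-0.06 under TMM), and 7 were lower at day 8. For 26 import and biogenesis genes 8 were lower and 0 higher at day 10, with a median of -0.18 that became 0.31 under TMM. The 76 cytosolic ribosomal protein genes had 23 higher and 0 lower at day 10, with medians of 0.13 at day 8 and 0.51 at day 10 (0.36 and 1.01 under TMM). Ribosomal protein genes of the 2 compartments therefore had medians of opposite sign in hypoxia under both scalings.

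**Figure D5:**
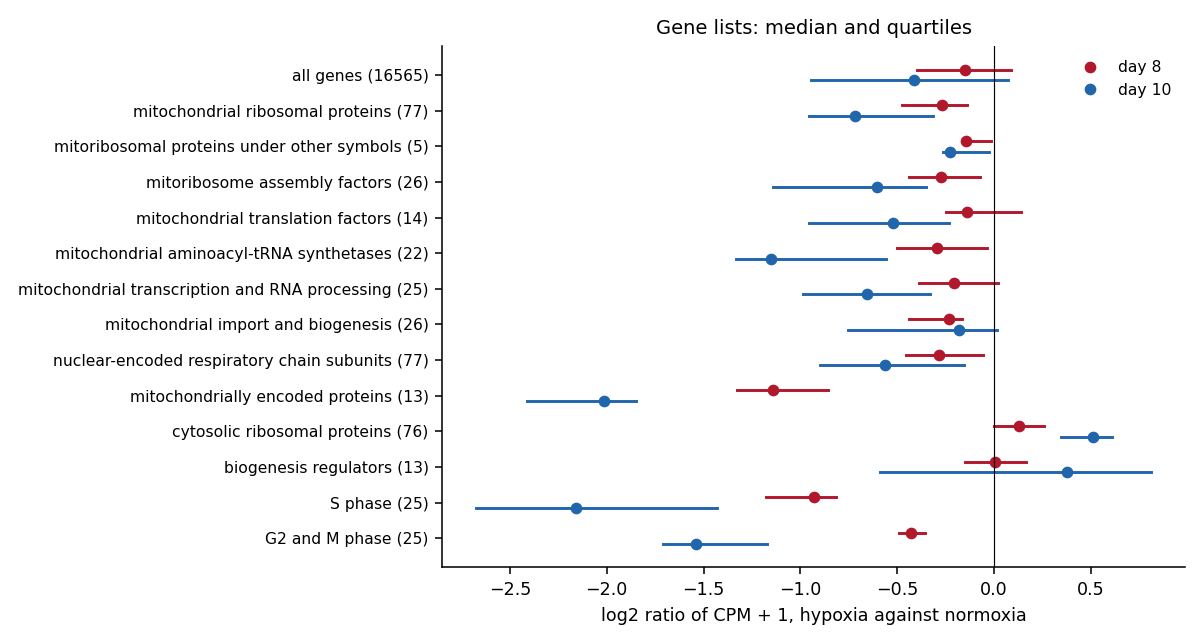
Median (point) and quartiles (line) of the log2 ratio of CPM + 1, hypoxia against normoxia (horizontal axis), for gene lists (vertical axis, number of genes in brackets) at day 8 and day 10. The 77 genes lie at -0.27 and -0.72 and the cytosolic ribosomal proteins at 0.13 and 0.51; under TMM the import and biogenesis genes and the mitoribosomal proteins under other symbols were at 0.31 and 0.27 at day 10, on the other side of 0.

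Of 13 listed regulators of nuclear genes for mitochondria, 5 were at least 1.5-fold higher and 4 lower at day 10, with a median of 0.37. Under TMM 8 were higher and 1 lower, with a median of 0.87. Of all genes 9.18% were higher and 40.6% lower with scaling to total UMIs, and 20.9% and 24.5% under TMM. Yy1 had 243 CPM in hypoxia day 10 and 113 CPM in normoxia day 10, Gabpb1 had 68.3 CPM in hypoxia day 10 and 38.4 CPM in normoxia day 10, and Nrf1 had 93.0 CPM in hypoxia day 10 and 71.5 CPM in normoxia day 10. Ppargc1a, the coactivator PGC-1 alpha, had 1.98 CPM in hypoxia day 10 and 7.17 CPM in normoxia day 10. Mxi1, a MAX-binding antagonist of MYC, had 107 CPM in hypoxia day 10 and 37.6 CPM in normoxia day 10, and 106 CPM in hypoxia day 8 and 25.3 CPM in normoxia day 8. Transcript levels of a regulator say nothing of its activity, and a relation to the 77 genes was not tested.

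Many of these genes share their start region with a neighbour. For 19 of the 77, or 24.7%, a protein-coding gene started on the opposite strand within 1000 bases upstream or up to 100 bases downstream. The same held for 9.71% of 14381 protein-coding genes with at least 100 UMIs (annotation GENCODE M21). In 11 of the 19 pairs gene and neighbour had log2 ratios of the same sign at day 10. Sign was not compared in the other pairs, and 71.7% of all genes were below 0 at day 10, so this count is not read. Mrps18b starts 45 bases from Ppp1r10, for a regulatory subunit of protein phosphatase 1, and the log2 ratios at day 10 were 1.09 and -1.47. Mrps18c starts 29 bases from Helq, a DNA helicase gene, and the ratios were -1.65 and -0.99. Mrps12 shares its start with Sars2, the mitochondrial seryl-tRNA synthetase gene, at -0.96 and -1.29, and Mrpl36 with Ndufs6, a complex I gene, at -1.11 and -0.90.

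The genes outside the list whose levels over the 4 libraries lay closest to the median of the list, by the distance between centred log2 (CPM + 1) values, were Chchd3, Caap1, Top1, Nup160 and Smarcc1. Chchd3 had 74.9 CPM in hypoxia day 8, 94.5 CPM in normoxia day 8, 57.3 CPM in hypoxia day 10 and 87.4 CPM in normoxia day 10. The 5 are named only as the nearest over 4 libraries.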

How the data were processed

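Whole-number UMI counts per gene and cell barcode were deposited by the authors for 4 libraries, and per the submitters' processing notes they were made with Cell Ranger 7.1.0 and mm10. Whether reads in introns were counted, and whether strand was used, is not recorded in the labels. Cells with at least 500 genes and at most 15% mitochondrial UMIs were kept. Scrublet, as run in scanpy 1.11.5, called under 0.5% of cells, so doublets were in effect not measured.

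UMIs were summed over the kept cells of a library, scaled to CPM, and turned into log2 ratios with a pseudocount of 1 CPM for genes of at least 100 UMIs. A gene was called past a fold of 1.5. With 1 library per group there was no test. Intervals are exact Poisson for levels, exact conditional binomial for plain ratios and Clopper-Pearson for shares, at 95%, and cover counting error only. Calls and intervals were checked on simulated Poisson counts, which hold counting error only and say nothing of variation between libraries. TMM factors were computed from the summed counts in numpy 2.4.6. Clusters came from leidenalg 0.10.2. Annotation was GENCODE M21 on GRCm38.

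The members and gene lists were chosen with earlier results of these data known. Named were the members with the 10 highest and 10 lowest ratios in each hypoxia comparison, 6 each with age, 6 highest and 4 lowest by mean level, and Mrpl11, Mrpl12, Mrpl58, Mrps12, Mrps18a to Mrps18c, Mrps30 and Mrps36, of which the text gives those its results turn on. Of the other lists, up to 4 genes with the largest ratios and some fixed ones were eligible. Malsu1, Grsf1, Gabpb1, Nrf1 and the neighbours of shared start regions were chosen after their values were seen.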

Additional observations from a re-analysis of the deposited data

Results flagged for a closer look

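Scaled to total UMIs, 10 of the 77 genes had opposite signs at day 8 and day 10 in the hypoxia comparison. For 7 of them the counting intervals excluded 0 at both ages. Apart from the pseudocount, TMM moves each log2 ratio up by 0.23 at day 8 and 0.50 at day 10. Negative ratios closer to 0 than that turn positive, so many of these signs depend on the scaling. Over the settings tried, Mrps18b at day 8 ran from -0.19 to 0.041. Opposite signs were not counted over all genes. The difference between ages was not tested because each age has 1 library per condition. Mrps18b had log2 ratios of -0.18 at day 8 and 1.09 at day 10, and Mrpl54 had 0.067 at day 8 and -0.70 at day 10. The other 5 of the 7 were Mrpl14 at 0.17 and -0.33, Mrpl9 at 0.12 and -0.12, Mrpl38 at -0.11 and 0.092, Mrps23 at -0.074 and 0.19, and Mrps24 at -0.20 and 0.088, day 8 before day 10. Mrps35 (0.029 and -0.57), Mrpl53 (-0.023 and 0.43) and Mrpl50 (-0.048 and 0.020) had day 8 intervals that include 0. Mrps24 shares exon sequence with Urgcp on the same strand.

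Cell classes also differed in sign, again untested. Mrps18b at day 10 had log2 ratios of 1.17 in mesenchymal-like cells, 1.23 in endoderm-like cells and -0.92 in macrophage-like cells. Mrpl24 at day 8 had 0.67 in mesenchymal-like cells, 0.25 in endoderm-like cells and -0.38 in erythroid-like cells.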

How the results depend on the processing

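Depth and composition differ between libraries, each condition is 1 library, and counts of genes past the fold are small at day 8 and with age. No paired analysis was possible because the groups compared share fewer than 2 replicate numbers, and a joint fit of both ages, which would mix 16 h with 48 h of hypoxia, was not made. For the values below, the median is that of the log2 ratios of the 77 genes and the share is the log2 ratio of their summed UMI share. Under TMM the day 8 median was -0.044, the share -0.020, with 1 lower and 2 higher; at day 10 the median was -0.23, the share 0.023, with 18 lower and 11 higher; with age the median was -0.066, the share -0.062, with 0 lower. Of all genes, 5.51% were lower and 7.81% higher at day 8 under TMM, 24.5% and 20.9% at day 10, and 7.54% lower with age. Centred on the median of all genes, day 8 gave -0.12 and a share of -0.10 with 1 lower and 2 higher. Day 10 gave -0.31 and -0.066 with 18 lower and 10 higher, and age gave -0.10 and -0.10 with 1 lower. Centred so, 6.46% of all genes were lower and 6.60% higher at day 8. At day 10 these were 23.1% and 20.9%, and 8.10% were lower with age. Scaled to UMIs outside mitochondrially encoded and cytosolic ribosomal protein genes, day 8 had a share of -0.26 and 4 lower (all genes 11.9%). Day 10 had a share of -0.36 and 5 higher (all genes 11.6%). Age had a median and share of -0.14 with 1 lower (all genes 9.54%). A pseudocount of 10 CPM left 1 lower and 0 higher at day 8 (all genes 2.20% and 1.73%) and 1 lower with age (all genes 2.66%). One of 0.1 CPM gave 5 lower at day 8 (all genes 20.9%). All deposited barcodes gave 1 lower at day 8 (all genes 11.7%). With at most 5% mitochondrial UMIs 4 were lower at day 8 (all genes 12.3%), and shares were -0.45 at day 10 and -0.22 with age. Thinning to 5000 UMIs gave 11 lower and 2 higher at day 8 (14.3% lower, all genes 14.4%), and shares of -0.53 at day 10 and -0.16 with age. Cells within a range of UMIs that was the same for every library gave 11 lower at day 8 (all genes 14.7%), and shares of -0.50 at day 10 and -0.17 with age. Mesenchymal-like cells gave shares of -0.23 at day 8, -0.47 at day 10 and -0.20 with age. A looser fold gave 32 lower (41.6%, all genes 31.7%) and 2 higher (all genes 9.91%) at day 8. It gave 8 higher at day 10 (all genes 15.8%) and 17 lower with age (all genes 26.6%). A fold of 2 gave 0 and 0 at day 8 (all genes 2.16% lower and 1.46% higher). It gave 18 lower (23.4%, all genes 23.0%) and 1 higher (all genes 3.89%) at day 10, and 0 lower with age (all genes 3.29%). Chosen after seeing the data, cells with at most 2 cell cycle UMIs gave a day 8 median of -0.14 (all genes -0.09) and share of -0.15. There 4 were lower at day 8 (all genes 13.7%), and shares were -0.33 at day 10 and -0.16 with age. Also added then, ribosome genes without same-strand overlap gave shares of -0.51 at day 10 and -0.19 with age. Mesenchymal-like cells without cluster 12, likewise added, gave shares of -0.23 at day 8, -0.41 at day 10 and -0.25 with age, and a median of -0.27 with age. Of 30 named values past the fold, 18 stayed past it under TMM and 19 when centred. Of 96 named values within the fold, 23 changed sign under TMM and 15 when centred. The cause of these shifts was not tested.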
